A study of Homo sapiens with 6 samples.

Results

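The genes described here encode the core proteins of the spliceosome and the most common RNA-binding proteins that steer it. They were chosen by name: protein-coding genes of the deposited table whose symbol starts with SRSF, HNRNP, SNRP, SF3A, SF3B or U2AF, or with PRPF followed by a digit. The rule found 72 genes of 24526 in the table, of which 15310 are protein coding. They fall into 12 SR protein genes (SRSF), 22 hnRNP genes, 12 genes of Sm and other snRNP proteins (SNRP), 9 SF3A and SF3B genes, 4 U2AF genes and 13 PRPF genes.

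The RNA-seq experiment covered 6 libraries of WM266.4, an established human melanoma cell line. In 3 libraries the cells had received Silencer Select Negative Control No. 2 siRNA (neg.si), and in the other 3 a Silencer Select siRNA against RIPK4 (RIPK4.si), a serine/threonine kinase of the receptor-interacting protein family. RNA was taken 48 h after transfection, and each group came from 3 independent experiments. The silencing was transient and used a single siRNA sequence, so effects of that sequence on other transcripts and effects of RIPK4 loss cannot be told apart.

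The spliceosome removes introns from pre-mRNA. Small nuclear ribonucleoprotein particles (snRNPs), each an RNA with a ring of Sm or Sm-like proteins and further specific proteins, recognise the splice sites in turn: the U1 snRNP binds the 5' splice site, the U2AF proteins mark the 3' splice site, the U2 snRNP with its SF3A and SF3B complexes takes the branch point, and the U4/U6.U5 tri-snRNP, which holds most PRPF proteins, completes the machine. SR proteins usually bind exons and favour their inclusion, while hnRNP proteins coat the transcript and often favour skipping, and many genes of both families regulate their own transcripts through poison exons.

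The 6 libraries held 28464057 to 31688095 counted read pairs, with 9.61 to 13.4% of them on mitochondrial genes. Levels are given as CPM, read counts scaled to library size after TMM, a normalization that equalises the bulk of genes between libraries. RIPK4 itself was at 85.8, 76.5 and 54.7 CPM in neg.si replicates 1, 2 and 3 and at 19.9, 16.7 and 21.5 CPM in RIPK4.si. The groups did not overlap, and RIPK4 fell by 1.90 on the log2 scale (adjusted p = 0.0102, quasi-likelihood test of edgeR, Benjamini-Hochberg). Leaving out neg.si replicate 2 or RIPK4.si replicate 1, 2 or 3 raised the adjusted p of edgeR to 0.106, 0.094, 0.0622 and 0.0725, with a log2 fold change of -1.79 or lower in each of these fits. All 8 melanocytic marker genes examined, such as SOX10, MITF and TYR, were present, and markers of keratinocytes, other epithelia, leukocytes, endothelium and fibroblasts summed to between 3.87 and 7.84 CPM per library. The melanocytic markers summed to 4012, 3773 and 3574 CPM in neg.si and to 2674, 2759 and 2635 CPM in RIPK4.si. Of the 8, 4 were lower at an unadjusted p under 0.05 in edgeR, as were 6.0% of all genes tested (PMEL also at an adjusted p of 0.0111, edgeR). Another 3 had a log2 fold change above 0, up to 0.36 for TYRP1. The part of this shift in the values of the splicing genes was not tested.

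The control libraries differed from each other in base composition. The rank correlation between the deviation of a gene's level and its GC content was 0.56, 0.08 and -0.56 in neg.si replicates 1, 2 and 3, but between -0.08 and 0.17 in RIPK4.si. The values of the splicing genes along this trend are given with the spread between libraries.

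By edgeR, no change was called among the genes tested. Of 69 genes with enough reads for the test, 0 passed an adjusted p of 0.05 in edgeR's quasi-likelihood test, against 0.767% of all 16297 genes tested. At an unadjusted p under 0.05 there were 3, PRPF40B, PRPF4 and HNRNPA1, or 4.35% of the genes against 10.8% of all genes. All 3 were higher in RIPK4.si, and the share of all genes that passed in this direction was 4.85%. DESeq2, run on the same counts with its Wald test, called 2 genes, PRPF4 and PRPF40B, of 68 with an adjusted p, and 1.47% of all genes were called higher by that tool. It gave the same number of genes at an unadjusted p under 0.05 as edgeR, 3, where 7.30% of all 24526 genes passed in DESeq2.

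The differences were small in size. The median log2 fold change of RIPK4.si over neg.si was 0.00, with 36 genes above 0 and 33 below, and the median over all genes tested was -0.02. The median size of the log2 fold change regardless of sign was 0.10, against 0.19 over all genes. The median standard error was 0.17, against 0.23. For 41 of the 69 genes (59.4%), the 95% interval of the fold change lay within 1.5-fold either way, a property of 29.4% of all genes. These comparisons with all genes were not matched for transcript level. For the other 28 genes the interval reached beyond 1.5-fold on at least 1 side, so at this precision a change of that size was not resolved. The RNA of the 72 genes together made up 10134, 9446 and 9530 CPM in neg.si and 9835, 9830 and 9331 CPM in RIPK4.si, about the same range in both groups.

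**Figure D1:**
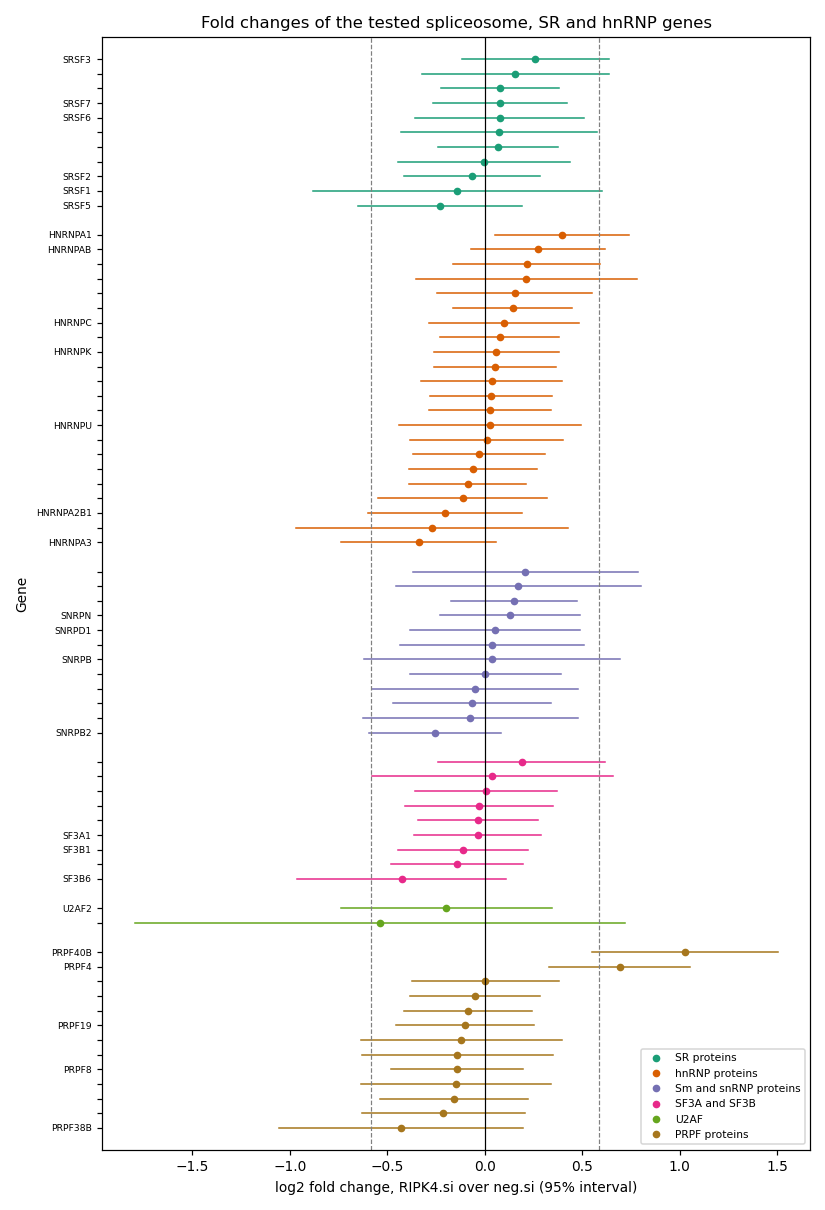
log2 fold change of RIPK4.si over neg.si (horizontal axis) for each of the 69 tested genes (vertical axis, by class and in order of fold change). Bars give the 95% interval worked out from the edgeR test, and dashed lines mark 1.5-fold either way. Names are given for the genes picked by the naming rule. Most points lie near 0, the intervals of 41 genes stay between the dashed lines, and PRPF40B and PRPF4 stand to the right.

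The 2 genes that DESeq2 called belong to the PRPF group, named after yeast mutants with defective pre-mRNA processing. PRPF4 is a subunit of the U4/U6 snRNP, where it is held together with PRPF3. PRPF40B is a homologue of a yeast U1 snRNP protein that bridges the ends of the intron. Their promoters are shown because they are the genes on which the comparison turns. Each sequence runs 5' to 3' on the plus strand of GRCh38.p14 from RefSeq, 300 bases around the RefSeq start of the gene, and capitals mark matches on either strand to the GC box GGGCGG or the NF-Y motif CCAAT. The windows are chr9:113275408-113275707 for PRPF4 and chr12:49623311-49623610 for PRPF40B. The counted gene models start elsewhere, at position 113275343 for PRPF4 and at 49568218, far upstream of the window, for PRPF40B.
PRPF4: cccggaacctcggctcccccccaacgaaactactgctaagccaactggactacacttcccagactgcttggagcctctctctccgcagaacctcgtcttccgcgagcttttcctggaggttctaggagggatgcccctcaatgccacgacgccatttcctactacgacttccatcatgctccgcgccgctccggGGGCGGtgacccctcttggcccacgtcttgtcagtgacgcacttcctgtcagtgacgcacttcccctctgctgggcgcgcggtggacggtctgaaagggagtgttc
PRPF40B: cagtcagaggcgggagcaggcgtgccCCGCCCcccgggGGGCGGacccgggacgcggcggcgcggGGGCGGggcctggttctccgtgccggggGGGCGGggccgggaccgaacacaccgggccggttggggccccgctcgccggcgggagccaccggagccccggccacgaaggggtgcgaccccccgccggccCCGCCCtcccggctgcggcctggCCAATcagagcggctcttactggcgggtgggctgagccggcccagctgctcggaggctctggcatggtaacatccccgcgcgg
The PRPF4 window held 1 GC box, and the PRPF40B window held 5 GC boxes and 1 CCAAT.

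PRPF4 was at 12.3, 13.7 and 13.9 CPM in neg.si and at 22.9, 19.1 and 22.3 CPM in RIPK4.si. Every RIPK4.si library was above every neg.si library. The log2 fold change was 0.69 (SE 0.16, 95% interval 0.33 to 1.06), with an unadjusted p of 0.00181 and an adjusted p of 0.105 in the edgeR quasi-likelihood test (Benjamini-Hochberg). Its adjusted p was 0.0102 in DESeq2 and ran from 0.0102 to 0.509 over the alternative settings.

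PRPF40B was at 1.87, 1.86 and 1.64 CPM in neg.si and at 3.71, 3.50 and 3.76 CPM in RIPK4.si. The groups lay far apart compared with the spread inside each of them. The log2 fold change was 1.03 (SE 0.21, 95% interval 0.55 to 1.51), with an unadjusted p of 0.000817 and an adjusted p of 0.0719 in edgeR. In DESeq2 the adjusted p was 0.0121, and over the alternatives it ran from 0.0121 to 0.411. In GENCODE 44, PRPF40B overlaps 7 genes, 3 of them on the opposite strand, and the counting did not use strand. Values of 2 of the 7, FMNL3 and FAM186B on the opposite strand, were used here. FMNL3 was at 45.6, 50.9 and 50.4 CPM in neg.si and at 44.7, 44.1 and 45.0 CPM in RIPK4.si, and FAM186B was at 0.807, 0.832 and 0.346 CPM against 0.341, 0.312 and 0.193 CPM. FMNL3 and FAM186B had lower levels in every RIPK4.si library than in any neg.si library, and neither passed the adjusted test (adjusted p of 0.848 and 0.369 in edgeR). The part of reads from overlapping genes in the PRPF40B count was not tested.

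When each library's trend on GC content was removed before the test, the same PRPF4 and PRPF40B were called (adjusted p of 0.0145 and 0.0281, edgeR), with 1.7% of all genes called higher. With a term for replicate number added to that fit, the adjusted p was 0.0283 for PRPF4 and 0.0514 for PRPF40B (edgeR), so PRPF40B was no longer called. Leaving out any single library kept the log2 fold change of PRPF4 between 0.65 and 0.78 and that of PRPF40B between 0.97 and 1.08.

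The remaining 11 PRPF genes gave values closer to 0. PRPF8, the large protein at the catalytic centre, was at 636, 663 and 539 CPM in neg.si and at 528, 590 and 548 CPM in RIPK4.si, with a log2 fold change of -0.14 (SE 0.15). PRPF19, a ubiquitin ligase that gives its name to a complex of the activated spliceosome, was at 115, 97.2 and 83.9 CPM against 93.2, 95.8 and 87.3 CPM. PRPF38B had the lowest log2 fold change of the group, -0.43 (SE 0.28), and its libraries overlapped, with 36.9, 32.4 and 53.5 CPM in neg.si and 41.2, 20.1 and 29.8 CPM in RIPK4.si. Of the 13 PRPF genes, 10 had a log2 fold change below 0 and the group median was -0.12. Intervals of 6 of the 13 stayed within 1.5-fold.

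The known partner of PRPF4 gave values near 0. PRPF3, the U4/U6 partner of PRPF4, was at 23.2, 25.4 and 23.0 CPM in neg.si and at 24.5, 22.5 and 22.2 CPM in RIPK4.si, with a log2 fold change of -0.05 (95% interval -0.38 to 0.28). As a description, the ratio of PRPF4 to PRPF3 CPM within a library was 0.528, 0.537 and 0.602 in neg.si and 0.935, 0.849 and 1.01 in RIPK4.si. The ratio was higher in every RIPK4.si library than in any neg.si library, a difference that was not tested separately from the genes themselves. Ratios of other gene pairs were also taken, and that of HNRNPA1 to HNRNPA2B1 is given below. The ratio of SRSF3 to SRSF7 was 1.60, 1.57 and 1.80 in neg.si and 1.62, 1.97 and 2.00 in RIPK4.si. That of SNRPN to SNRPB was 0.621, 0.830 and 1.21 against 0.905, 0.818 and 0.856. Both of these overlapped between the groups.

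**Figure D2:**
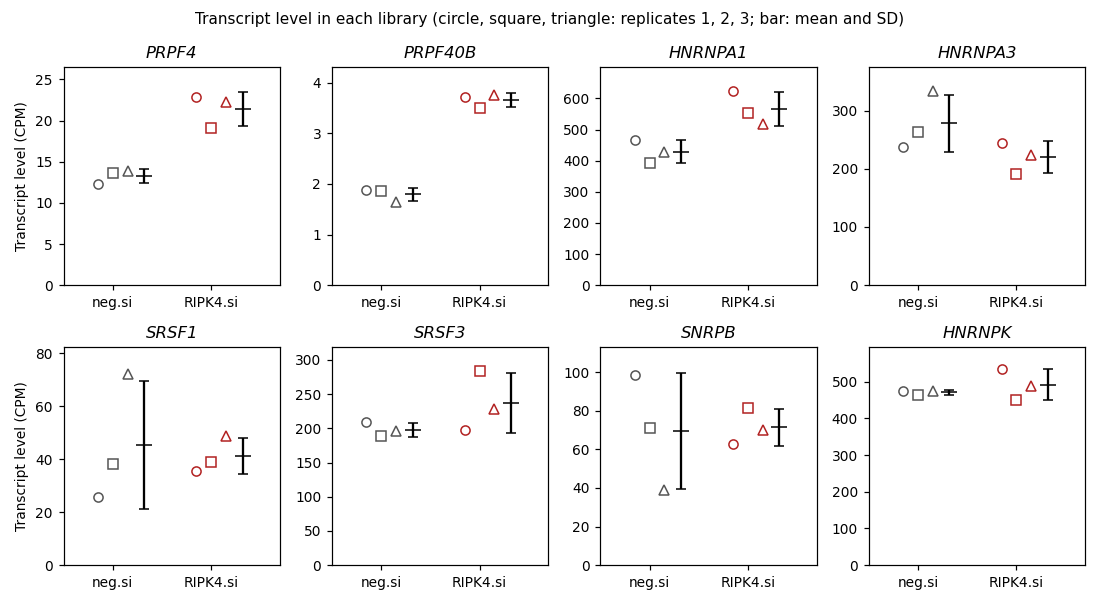
Transcript level in CPM (vertical axes, each from 0) in the 3 neg.si and the 3 RIPK4.si libraries for 8 genes, with circle, square and triangle for replicates 1, 2 and 3 and a bar for the mean ± SD. The groups are apart for PRPF4, PRPF40B and HNRNPA1 and overlap for the other genes shown, and SRSF1 and SNRPB are spread most widely within neg.si.

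Among the hnRNP genes, HNRNPA1, an abundant protein that shuttles between nucleus and cytoplasm and represses exons, had the smallest p. It was at 467, 392 and 428 CPM in neg.si and at 624, 552 and 517 CPM in RIPK4.si. The lowest RIPK4.si library was above the highest neg.si library. The log2 fold change was 0.40 (SE 0.15), with an unadjusted p of 0.0281 and an adjusted p of 0.361 in edgeR, and 0.168 to 0.889 over the alternatives. Of its 100-base windows, 27.1% occur elsewhere in the annotated transcripts, with the largest share, 15.6%, in HNRNPA1L3, a copy of the gene. How the counting handled reads from these windows was not tested.

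The other HNRNPA genes lay on both sides of 0. HNRNPA0 had a log2 fold change of 0.04 (SE 0.16), HNRNPA1P48 of 0.21 (SE 0.25) and HNRNPA1L2 of -0.27 (SE 0.31). The latter pair are copies of HNRNPA1. Of the HNRNPA1P48 windows, 36.1% occur in other transcripts, and 33.3% in those of HNRNPA1. For HNRNPA1L2 the share was 100%, all of them found in a gene that overlaps it on the same strand. For HNRNPA3 the share was 12.2%, most often with HNRNPA3P6. HNRNPA2B1 was at 755, 692 and 840 CPM in neg.si and at 783, 546 and 656 CPM in RIPK4.si. HNRNPA3 was at 237, 264 and 333 CPM in neg.si and at 245, 190 and 224 CPM in RIPK4.si, with a log2 fold change of -0.34 (SE 0.18) and an unadjusted p of 0.0865, and its groups overlapped. With the GC trend of each library removed, a fit in which 16.2% of all genes had an unadjusted p under 0.05, the unadjusted p of HNRNPA3 was 0.036 and its adjusted p 0.259 (edgeR). The ratio of HNRNPA1 to HNRNPA2B1 CPM was 0.619, 0.566 and 0.510 in neg.si and 0.797, 1.01 and 0.789 in RIPK4.si, higher in every RIPK4.si library and given here as a description. HNRNPAB, a related protein, was at 71, 55.5 and 59.1 CPM against 80.1, 74.8 and 69.5 CPM, a log2 fold change of 0.27 (SE 0.15) with overlapping groups. In the fit without the GC trend its unadjusted p was 0.0408 and its adjusted p 0.278 (edgeR).

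Other abundant hnRNP genes overlapped between the groups. HNRNPK, which binds C-rich RNA, was at 476, 464 and 474 CPM in neg.si and at 535, 451 and 488 CPM in RIPK4.si, with a log2 fold change of 0.06 (95% interval -0.26 to 0.38). HNRNPC, the polyuridine-binding protein that keeps U2AF2 off cryptic 3' splice sites, was at 694, 616 and 525 CPM against 605, 755 and 605 CPM. HNRNPU, a nuclear matrix-associated protein, was at 394, 446 and 578 CPM against 554, 369 and 522 CPM. Of these 3 genes, HNRNPK varied least between libraries of the same group and HNRNPU most. HNRNPR, a relative of SYNCRIP, did not overlap, with 166, 148 and 150 CPM against 174, 167 and 171 CPM, but the log2 fold change was 0.14 (SE 0.14) with an unadjusted p of 0.316. Of the 22 hnRNP genes, 15 had a log2 fold change above 0, the median was 0.03, and 15 intervals stayed within 1.5-fold.

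The SR protein genes showed no call either. SRSF3, the smallest SR protein, had the highest log2 fold change of the family, 0.26 (SE 0.17), from 209, 188 and 196 CPM in neg.si and 197, 284 and 229 CPM in RIPK4.si. SRSF5 had the lowest, -0.23 (SE 0.19), from 86.1, 71.1 and 89.7 CPM and 88.1, 60.1 and 62.5 CPM. Groups overlapped for both. SRSF2, which binds exonic enhancers and is mutated in some myeloid neoplasms, was at 67.4, 66.4 and 79.2 CPM in neg.si and at 60.4, 76.1 and 67.3 CPM in RIPK4.si. SRSF6 was at 46.4, 53.8 and 74.9 CPM against 65.3, 56.3 and 63.2 CPM, and SRSF7, an export adaptor for mRNA, at 131, 120 and 109 CPM against 121, 144 and 115 CPM. Both sets of libraries overlapped as well. Of the SRSF6 windows, 14.5% occur in other transcripts. SRSF4 was the single SR gene without overlap, at 57.3, 63.0 and 63.0 CPM against 63.1, 65.1 and 65.6 CPM, a log2 fold change of 0.08 (SE 0.14). The median of the 11 tested SR genes was 0.07, with 7 above 0 and 7 intervals within 1.5-fold.

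SRSF1, the founding SR protein and a known oncoprotein, was the widest of them. It was at 25.5, 38.3 and 72.2 CPM in neg.si and at 35.5, 39.1 and 48.6 CPM in RIPK4.si. The neg.si libraries alone spanned more than all RIPK4.si libraries, and the log2 fold change of -0.14 had a 95% interval from -0.88 to 0.60. Without neg.si replicate 3 the log2 fold change became 0.37, so its sign rested on that library. Of the SRSF1 windows, 26.7% also occur in a gene that overlaps it on the same strand. How the counting handled reads from these windows was not tested.

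The 5 genes without overlap between groups, all higher in RIPK4.si, were PRPF4, PRPF40B, HNRNPA1, HNRNPR and SRSF4. They were 7.25% of the genes tested, against 17.6% of all genes.

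The Sm and snRNP protein genes gave a group median of 0.04 with 8 of 12 above 0. SNRPB, which encodes the Sm ring proteins B and B', was at 98.6, 71.3 and 38.7 CPM in neg.si and at 62.6, 81.5 and 69.9 CPM in RIPK4.si. Its log2 fold change was 0.04 with a 95% interval from -0.62 to 0.69, since the neg.si libraries enclosed the RIPK4.si libraries on both sides. SNRPD1, another ring protein, was at 104, 83.6 and 74.3 CPM against 87.7, 110 and 74.4 CPM. SNRPN, the imprinted Sm protein gene expressed mostly in brain, was at 61.3, 59.2 and 47.0 CPM against 56.7, 66.7 and 59.8 CPM, and 60.3% of its 100-base windows are shared, most often with SNURF, which lies on the same transcript. SNRPB2, a U2 snRNP protein, had the lowest log2 fold change of the class, -0.25 (SE 0.15), from 257, 239 and 226 CPM to 185, 230 and 190 CPM. Its groups overlapped, as did those of all 12 genes of the class.

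The SF3A and SF3B genes, whose products hold the U2 snRNP on the branch point, had a median of -0.03 with 6 of 9 below 0. SF3B1, the large scaffold that is mutated in uveal melanoma and myelodysplasia, was at 379, 419 and 470 CPM in neg.si and at 372, 408 and 392 CPM in RIPK4.si. Its log2 fold change was -0.11 (95% interval -0.45 to 0.22). SF3A1 was at 163, 177 and 167 CPM against 178, 145 and 171 CPM. SF3B6, the small subunit that contacts the branch-point adenosine, was at 152, 120 and 86.7 CPM against 76.9, 114 and 75.4 CPM, and its log2 fold change of -0.43 (SE 0.24, unadjusted p 0.107) was the lowest of the class. Groups of these genes overlapped, and 6 of the 9 intervals stayed within 1.5-fold.

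U2AF2, the large U2AF subunit that binds the polypyrimidine tract, was at 212, 158 and 107 CPM in neg.si and at 128, 164 and 125 CPM in RIPK4.si, with a log2 fold change of -0.20 (95% interval -0.74 to 0.35). Its small partner U2AF1, which reads the AG at the 3' splice site, had 5, 3 and 7 counts in neg.si and 0, 2 and 0 in RIPK4.si, too few for the test. U2AF1L5, a gene model on the same chromosome, had 5, 3 and 27 counts in neg.si and 15, 7 and 7 in RIPK4.si. The canonical transcripts of both genes in GENCODE 44 are 945 bases long and identical at 944 of them, and GENCODE marks the U2AF1L5 locus as an artifactual duplication of U2AF1. The single difference is A12C, with U2AF1 first and positions counted from the 5' end of the transcript, in the 5' UTR. A stretch of 100 coding bases shows what a read would have to tell apart. It lies at chr21:43093150-43093249 for U2AF1 and at chr21:6484817-6484916 for U2AF1L5, both on the minus strand of GRCh38, and is printed 5' to 3' in lower case.
U2AF1: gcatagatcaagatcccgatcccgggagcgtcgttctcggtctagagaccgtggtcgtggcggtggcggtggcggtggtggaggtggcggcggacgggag
U2AF1L5: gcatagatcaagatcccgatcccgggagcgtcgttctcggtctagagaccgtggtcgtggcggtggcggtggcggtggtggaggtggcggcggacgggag
A read from most of either transcript matches both loci equally. The counts of these genes are therefore no measure of their transcripts, and how the counting handled such reads was not tested. SRSF12, with 4 to 10 counts per library, was the third gene that the test did not take, and DESeq2 gave no adjusted p for any of the 3 or for U2AF1L4.

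Levels differed far more between genes than between the groups. Per kilobase of canonical transcript, the mean level in neg.si was highest for SNRPD2, at 221 ± 72.7 CPM per kb (SD, n = 3), followed by HNRNPA2B1 at 210 ± 20.5, HNRNPC at 193 ± 26.6, SF3B6 at 183 ± 49.9 and HNRNPK at 163 ± 2.21 CPM per kb. Each of these genes overlapped the next within their SD, so the order of neighbours is not resolved. PRPF8 came 10th, at 84.2 ± 8.96 CPM per kb, and led the PRPF genes. At the low end, among genes with few shared windows, SRSF12 was at 0.0602 ± 0.0277, PRPF40B at 0.563 ± 0.0421 and PRPF4 at 4.58 ± 0.297 CPM per kb. PRPF40B was the least abundant PRPF gene in control cells, followed by PRPF4 and by PRPF18 at 4.59 ± 0.517 CPM per kb, within the spread of PRPF4.

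**Figure D3:**
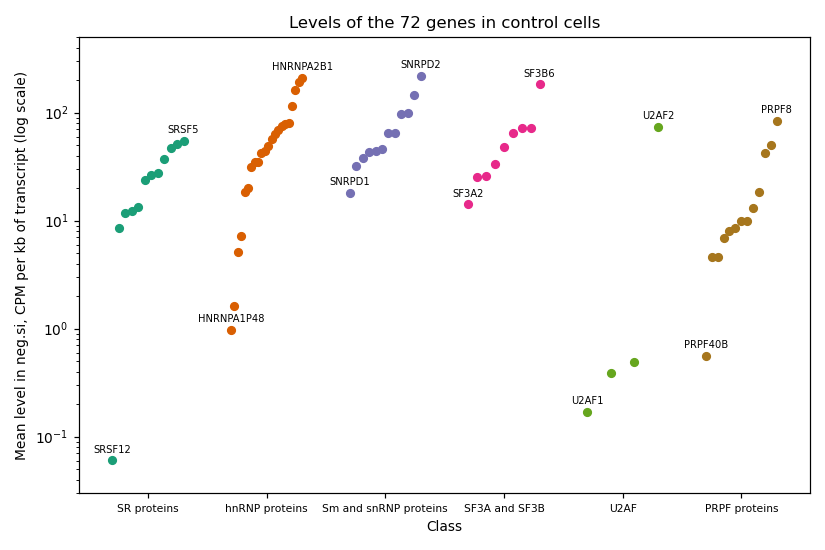
Mean level in neg.si in CPM per kb of canonical transcript (vertical log axis) of the 72 genes, each a point, by class (horizontal axis) and in order of level within it, with the lowest and highest genes named. The classes overlap, and levels run from 0.0602 for SRSF12 to 221 for SNRPD2.

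The control libraries lay farther apart than the RIPK4.si libraries for these genes. The highest and the lowest neg.si library differed by more than 1.5-fold for 19 of 69 genes (27.5%), against 50.2% of all genes tested, and the RIPK4.si libraries did so for 10 genes (14.5%), against 32%. The median coefficient of variation in neg.si was 13.1% over the tested splicing genes and 20.9% over all genes. In RIPK4.si it was 10.6% and 15%. These comparisons were not matched for transcript level either.

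Of the 12 Sm and snRNP genes, 10 were highest in neg.si replicate 1 and lowest in replicate 3, as were 5230 of all 16297 genes tested, and the median ratio of replicate 1 to replicate 3 was 1.46. Their summed level was 1291, 1055 and 872 CPM in neg.si and 994, 1249 and 957 CPM in RIPK4.si. Of the 11 tested SR genes, 8 were highest in neg.si replicate 3, as were 7023 of the 16297 genes. The difference between the classes was not tested. SNRPB was 2.55 times as high in replicate 1 as in replicate 3, and SRSF1 only 0.354 times. Across the 69 genes, the log2 ratio of neg.si replicate 1 to replicate 3 had a rank correlation of 0.55 with GC content and of -0.54 with transcript length. Over 16232 genes the values were 0.64 and -0.28. These points share the same pair of libraries, and the part of base composition or length in any single gene's value was not tested.

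**Figure D4:**
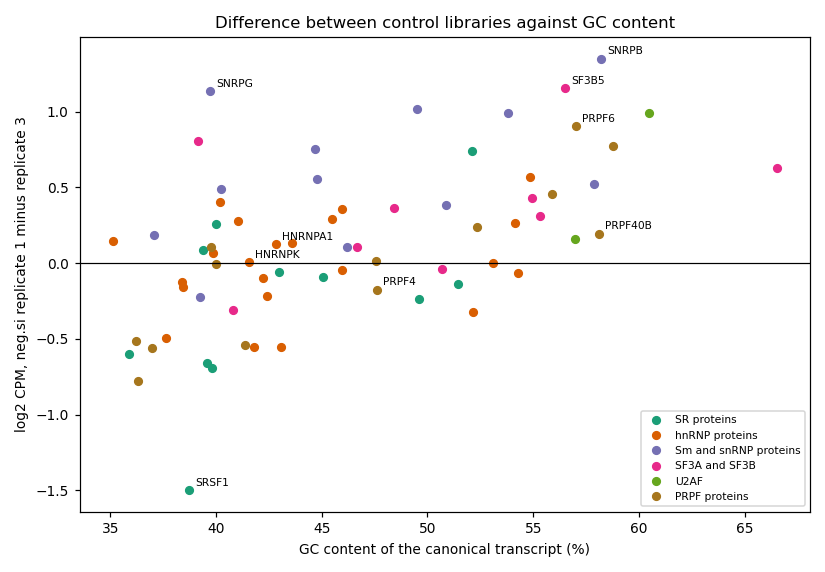
log2 CPM of neg.si replicate 1 minus replicate 3 (vertical axis) against GC content of the canonical transcript in percent (horizontal axis) for the 69 tested genes, coloured by class. Points rise from left to right (rank correlation 0.55), with SRSF1 lowest and SNRPB highest, while PRPF4, PRPF40B and HNRNPA1 lie near 0.

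The promoters of the set were compared with those of other genes by the share that holds a short motif on either strand. RefSeq promoter windows of 300 bases were found for 62 of the 72 genes. The ETS core CCGGAAG, bound by ETS-family activators, occurred in 21 of them (33.9%), against 18.5% of 11037 promoters of tested genes and 10.7% of all 27305 promoters. The GC box GGGCGG occurred in 39 (62.9%, against 68.2% and 44.6%), CCAAT in 26 (41.9%, against 36.5% and 35.7%), the NRF1 sequence GCGCATGC in 4 (6.45%, against 5.35% and 3.27%) and TATAAA in 6 (9.68%, against 5.93% and 12.0%). No motif is contained in another. Neither PRPF4 nor PRPF40B held the ETS core in its window. A match is a match of letters only.

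The wider splicing machinery was examined with 160 further genes in 7 lists, of which 154 were tested. A single gene was called in edgeR, CELF2, against 0.767% of all genes. CELF2, a regulator of alternative splicing and RNA stability, was at 31.9, 36.1 and 39.2 CPM in neg.si and at 70.3, 64.5 and 81.6 CPM in RIPK4.si. The groups did not overlap, and the log2 fold change was 1.01 (SE 0.16) with an adjusted p of 0.0329 in edgeR. Leaving out a library raised that value above 0.05 in 5 of 6 cases, up to 0.251. DESeq2 called 4 genes, CELF2, FUBP1, GEMIN2 and NOVA2, against 2.91% of all genes with an adjusted p in that tool.

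At an unadjusted p under 0.05 there were 12 of the 154 genes (7.79%, against 10.8% of all genes), 5 higher and 7 lower. The lower genes with the smallest p were NOVA2, a neuronal splicing regulator, GEMIN2, a partner of SMN in building Sm rings, and SNUPN, the import adaptor of snRNPs. NOVA2 was at 4.39, 5.49 and 3.90 CPM in neg.si and at 1.67, 2.25 and 2.22 CPM in RIPK4.si (adjusted p = 0.0711, edgeR). GEMIN2 was at 22.5, 19.4 and 16.6 CPM against 9.10, 12.8 and 8.68 CPM (adjusted p = 0.0915, edgeR). SNUPN was at 18.3, 16.8 and 13.4 CPM against 9.71, 11.1 and 10.2 CPM, and none of these 3 genes overlapped between groups, as was the case for 17 of the 154 further genes (11%) against 17.6% of all genes. The higher genes with the smallest p after CELF2 were FUBP1 and SON. FUBP1, a single-stranded nucleic acid binding protein with roles in transcription and splicing, was at 41.2, 41.1 and 42.3 CPM against 68.5, 53.6 and 61 CPM. SON, a large scaffold of nuclear speckles, was at 156, 188 and 215 CPM against 313, 236 and 296 CPM, again without overlap.

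In edgeR, 10.8% of all genes reached an unadjusted p under 0.05 (4.85% higher and 6.0% lower). By list, it was reached by 3 of 19 genes of snRNP assembly (all lower), 4 of 41 splicing regulators (3 higher) and 2 of 26 other snRNP proteins (1 in each direction). It was also reached by 1 of 25 genes of the PRPF19 complex and the helicases (lower), 1 of 10 SR kinases and import factors (lower) and 1 of 24 SR-like proteins (higher). For the minor spliceosome the count was 0 of 9 genes. DESeq2 also gave 0 for the minor spliceosome, where 7.30% of all 24526 genes passed in that tool. Of the 25 PRPF19 complex and helicase genes, 23 (92%) had a log2 fold change below 0, against 53.4% of all genes tested, with a median of -0.10. None of them was called, and their intervals stayed within 1.5-fold for 19. Over the 154 genes the median log2 fold change was -0.04, beside -0.02 for all genes.

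**Figure D5:**
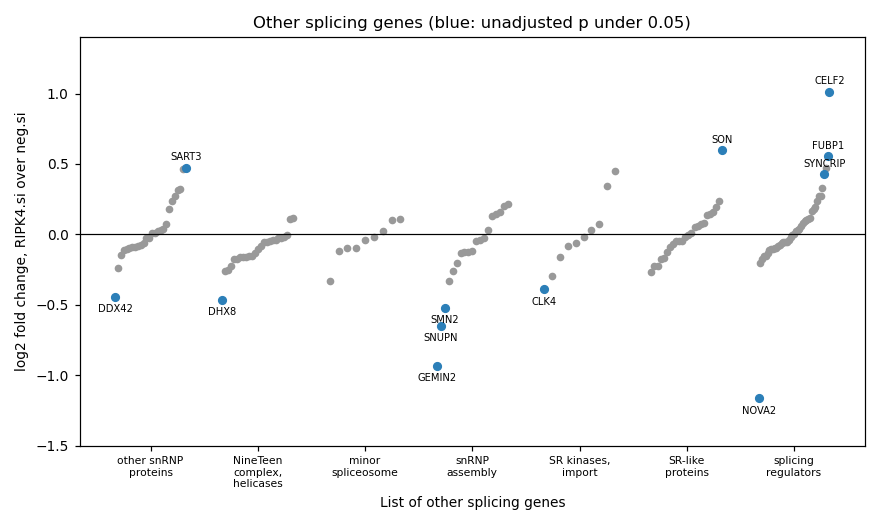
log2 fold change of RIPK4.si over neg.si (vertical axis) of the 154 tested further splicing genes, each a point, by list (horizontal axis) and in order within it, in blue where the unadjusted p was under 0.05. The 12 blue points carry their gene names, with CELF2 highest and NOVA2 lowest.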

How the data were processed

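RNA was measured in 6 WM266.4 libraries, 3 neg.si and 3 RIPK4.si, made from poly(A) RNA and sequenced on the BGISEQ-500 platform. Per the labels and the study's methods, reads were trimmed with Cutadapt, aligned with TopHat to GRCh38.p13 and counted per gene with HTSeq without strand. The deposited count values are unnormalized whole numbers for each gene, and the smallest total of a gene over the libraries is 6. A second block of deposited values, here called signal, is the same counts after division by DESeq2 size factors by the authors, and was not used. The deposited fold, ratio, log2, standard error and p-value columns hold the authors' DESeq2 comparison and were not used.

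The counts entered edgeR 4.0.16 (R 4.3.3) with its default filter on low counts and TMM scaling, and 16297 genes were tested two-sided by quasi-likelihood, adjusted after Benjamini-Hochberg. CPM are normalized for library size and TMM factor. The alternatives were DESeq2 1.42.0, other normalizations and filters, a replicate block, removal of each library's GC trend (lowess, span 0.3), and leaving out each library. Replicates are separate experiments per the study, and p-values set the difference between the groups against the spread between libraries of the same group. Transcript length, GC content, gene overlaps and windows of 100 bases shared between transcripts came from GENCODE 44, which held all 72 genes, 52 with identical coordinates. Of the 72, 26 shared at least 1 window and 15 more than 10%, and 34 overlapped a gene on the opposite strand. Precision is given by the standard error, which carries both counting error and the spread between libraries. Ratios between genes and motif counts used Python 3.11.15 with numpy 2.4.6 and pandas 2.3.3, and plots used matplotlib 3.10.9.

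Genes named were those called in edgeR or DESeq2, the 5 that were higher and the 5 that were lower with the smallest p-values, and a fixed set of well-known genes. Of the further splicing genes, those called in edgeR and the 3 with the smallest p-values in each direction were named, and the most and least abundant members, such as SNRPD2 and SRSF12, in the account of levels. HNRNPR, HNRNPA0, HNRNPA1P48, HNRNPA1L2, SRSF4, PRPF3, PRPF18, U2AF1L5 and U2AF1L4, the overlapping genes FMNL3 and FAM186B, and the further genes DESeq2 called, were named after their values were seen. Members not named enter the counts, medians and plots only, and 1 result that would have named a further member is not reported here. The members and lists were chosen with earlier results of these data known.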

Additional observations from a re-analysis of the deposited data

How the results depend on the processing

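No gene of the set of 72 was called in edgeR under another normalization or filter, with the replicate block or without any single library (0 to 0). DESeq2 called 2, removal of the GC trend 2, and removal of the GC trend with the replicate block 1, PRPF4, beside 2.91%, 3.42% and 2.99% of all genes in these fits. At an unadjusted p under 0.05 there were 3 genes, 5 with the GC trend removed, 6 with the GC trend removed and the block, and 2 to 6 without single libraries. Over all genes these shares were 10.8%, 16.2%, 16.6% and 6.48 to 14.3%. The 5 genes without overlap became 8 to 15 without single libraries, where fewer libraries have to stay apart and the share of all genes was 21.4 to 31.7%, from 17.6%. The median log2 fold change stayed between -0.034 and 0.055. Of the further splicing genes, 1 was called, 4 in DESeq2, 3 with the GC trend removed, 3 with the GC trend removed and the block, and 0 to 4 without single libraries. The log2 fold change of RIPK4 was -2.06 to -1.74 without single libraries, but its adjusted p in edgeR was 0.106 without neg.si replicate 2, and 0.094, 0.0622 and 0.0725 without RIPK4.si replicates 1, 2 and 3. Over all genes, edgeR called 125 (0.767%), 295 (1.78%) when neg.si replicate 3 was left out, 70 without neg.si replicate 1, 4 without RIPK4.si replicate 2, and 0, 0 and 0 without neg.si replicate 2, RIPK4.si replicate 1 and RIPK4.si replicate 3 (with 6.88%, 8.54% and 6.48% at an unadjusted p under 0.05), where a count of 0 says little about the splicing genes.

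The replicate numbers are shared by both groups, but same-numbered libraries had correlated deviations of -0.24, 0.25 and 0.35, so the numbers were not taken as pairs. With the replicate block, 0 of these 69 genes, 1 further splicing gene (CELF2) and 131 of all genes were called, and the block alone changed no call among the named genes.

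Of 378 values of 27 named genes over 14 alternatives, 351 kept their direction and side of the threshold, 5 passed it (PRPF4 and PRPF40B), 5 lost it (CELF2 without single libraries) and 17 changed sign, all of genes near 0 and all without a single library. Over those fits the log2 fold change ran from -0.41 to 0.37 for SRSF1, -0.14 to 0.027 for SRSF2, -0.045 to 0.30 for SRSF6, -0.016 to 0.16 for SRSF7, -0.0067 to 0.22 for HNRNPC, -0.075 to 0.20 for HNRNPU, -0.25 to 0.39 for SNRPB, -0.10 to 0.22 for SNRPD1, -0.085 to 0.059 for SF3A1, -0.41 to 0.082 for U2AF2 and -0.20 to 0.042 for PRPF19.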
